A study of Mus musculus with 4 samples.

Results

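The genes examined here carry bone morphogenetic protein (BMP) and hedgehog signals in the crypt, and their methylation was measured in whole-genome bisulfite sequencing data of the mouse colon. They were taken as a list, by a rule with no threshold on a measured value but with earlier results of these data known, and are 10 of 22380 protein-coding genes of the annotation. The list holds the BMP ligands Bmp2, Bmp4 and Bmp7, the BMP receptor Bmpr1a, the BMP antagonist Grem1, the BMP target Id1, the hedgehog ligands Ihh and Shh, the hedgehog receptor Ptch1 and the hedgehog effector Gli1. Each gene was followed from 5 kb upstream of its transcription start site (TSS) to its end in bins of 200 bp. A bin was tested where it held at least 2 CpGs and at least 10 methylation calls in all 4 libraries, and 949 bins of the 10 genes were among the 4076373 autosomal bins tested.

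The libraries came from colonic intestinal stem cells (ISCs) and from differentiated epithelial cells on the day of birth (P0) and on postnatal day 21 (P21), when suckling ends. All mice were C57 offspring of a cross between the Lgr5-EGFP-CreER line, in which a knock-in at the stem cell gene Lgr5 drives green fluorescent protein (EGFP) and a Cre recombinase, and wild-type mice. ISCs were the EGFP-positive cells, and differentiated cells were those that carried EpCAM, a surface protein of epithelia, without EGFP. Each of the 4 groups was 1 library. Its DNA was pooled from several litters at P0 and from several EGFP-positive offspring at P21. Since the knock-in is expressed in a mosaic of crypts, and the litters of the cross can hold pups without it, stem cells that lack EGFP could lie in the differentiated gate, and their share was not measured. The sources do not say whether the ISCs and the differentiated cells of 1 age came from the same mice.

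BMP ligands bind receptors that phosphorylate SMAD proteins, and these switch on targets such as the ID genes. In the colon, BMP activity is high in differentiated cells near the surface, and antagonists such as gremlin, made by cells beneath the crypt base, keep it low around the stem cells. Hedgehog ligands are made by the epithelium and act on the mesenchyme, where they bind Patched, release Smoothened and activate GLI proteins, and mesenchymal cells in turn make BMPs. Several of the listed genes therefore have their main known site of expression outside the epithelium that was sorted here. RNA was not measured in these libraries.

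A library held 1023427645 to 1188114423 methylation calls, and the median tested autosomal bin held 55 and 58 calls in ISCs at P0 and P21 and 81 and 68 in differentiated cells. With 1 library a group, every test below compares 2 libraries and not 2 conditions. The tests and 95% intervals measure counting error alone and take each call as independent. The calls of CpGs on the same read are linked, and PCR copies of a molecule could not be told apart. The p-values can therefore be too small and the intervals too narrow. The promoters of the 6 blood cell genes checked had mean levels of 62.1% to 89.5% in every library. Of the 7 epithelial genes, 6 had promoters at 0% to 12.9%, among them Epcam at 11.3% to 12.0%, and Krt20 was at 51.4% to 55.7%. The 5 stem cell genes spanned 2.95% to 51.3%. Of the 7 mesenchymal genes, Pdgfra, Vim, Twist1 and Col1a2 were at 0.617% to 9.95%, Col1a1 at 20.3% to 29.1%, and Acta2 and Col3a1 at 44.4% to 58.7%. The share of mesenchymal cells in the sort was not tested.

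With age, called bins lay in every one of the 10 genes but Bmp4 and Id1 in ISCs and but Grem1 and Id1 in differentiated cells, and Shh held 21 and 22 of them. Of 54 other genes of the pathways, 46 also held a called bin in ISCs and 43 in differentiated cells. The share of all genes that hold a called bin was not taken, so these counts of genes have no background. A gene with more tested bins has more chances to hold a called bin, and Bmpr1a, Grem1 and Gli1 held only 1 each in ISCs. Differences between ISCs and differentiated cells of the same age were called in 2 bins at P0 and in none at P21. A bin was called where Fisher's exact test gave an adjusted p below 0.05 over all autosomal bins and the level differed by more than 15 percentage points. In ISCs 51 of the 949 bins were called between P0 and P21, 45 of them gains and 6 losses, which is 5.37% of the tested bins against 2.55% of all autosomal bins. In differentiated cells 49 bins were called, 37 gains and 12 losses, or 5.16% against 2.85%. The bins of 9 of the genes were deeper than all autosomal bins, by the median number of calls in each library, while those of Bmpr1a were shallower, and the part of depth in these shares was not tested. Over all autosomal bins gains made up 1.07% in ISCs and 0.992% in differentiated cells, and losses made up 1.48% and 1.86%. Between the cell populations, 0.508% of all autosomal bins were called at P0 and 0.182% at P21. At a size of more than 15 points and with no test, the share of the bins of the 10 genes was close to that of all bins with age and below it between the populations. It was 13.6% against 13.5% with age in ISCs, 12.2% against 12.0% in differentiated cells, 5.80% against 10.6% between the populations at P0 and 7.27% against 9.47% at P21. By size alone, gains with age were 10.54% of the bins of the 10 genes in ISCs and 8.96% in differentiated cells, against 6.31% and 4.92% of all bins, and losses were 3.06% and 3.27% against 7.14% and 7.08%.

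A single gene, Shh, held 21 of the 51 called bins of ISCs and 22 of the 49 of differentiated cells. Without Shh, 30 of 894 bins were called in ISCs (3.36%, with 24 gains and 6 losses) and 27 of 894 in differentiated cells (3.02%, with 15 gains and 12 losses), against 2.55% and 2.85% of all autosomal bins. In 26 bins a change was called in both populations, always in the same direction, and 19 of these were in Shh. The same count over all autosomal bins was not taken, so this overlap cannot be set against a background. The age comparisons of ISCs and of differentiated cells share no library. The median change over the 949 bins was 0.93 points in ISCs and 0.63 points in differentiated cells, against 0 and -0.07 over all autosomal bins.

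**Figure D1:**
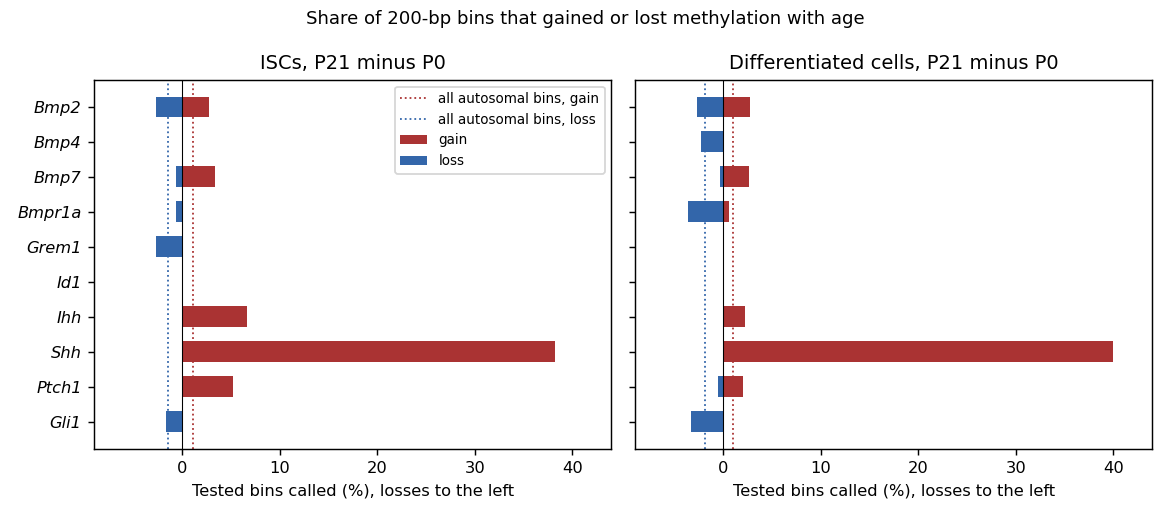
Share of the tested 200-bp bins of each gene (x axis, %, losses drawn to the left of 0) that were called between P0 and P21 in ISCs (left) and differentiated cells (right), with dotted lines for the share over all autosomal bins. The bars of Shh reach 38.2% and 40%, all gains, and the bars of the other 9 genes end at 6.67% or less in either direction.

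Shh, a secreted ligand that patterns the gut tube from the epithelium, lies at chr5:28783355-28793641 on the minus strand (mm9) and has 3 exons. Its body, the part beyond 1 kb from the TSS up to the last exon, had a mean level of 14.1% in ISCs and 15.4% in differentiated cells of newborn mice, and of 38.2% and 38.6% at P21. The rise was 24.1 points in ISCs (95% interval of the difference 22.2 to 25.9) and 23.2 points in differentiated cells (21.6 to 24.8), and the rise of differentiated cells minus that of ISCs was -0.86 points (interval -3.29 to 1.58). Of 17629 gene bodies measured, 18 rose at least as much in ISCs and 11 in differentiated cells, Shh itself included in both counts. Even at P21 the body remained far below the median of all gene bodies, which was 79.997% in ISCs and 79.4% in differentiated cells.

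The gain was not spread evenly over the gene. From the coding part of exon 3 to exon 1, bins fell into 3 stretches. Over 3400 bp of exon 1 and the 5' end of intron 1 (chr5:28790201-28793600), 16 tested bins were unmethylated in every library, with pooled levels of 0.549% and 1.004% in ISCs at P0 and P21 and 0.459% and 0.565% in differentiated cells. The highest level of a bin of this stretch was 3.61%. A second low stretch of 7 bins covered the 3' end of intron 2 and most of the coding part of exon 3 (chr5:28784601-28786000), where the pooled levels were 1.31% and 0.488% in ISCs and 0.568% and 0.421% in differentiated cells. Between them lay 18 bins (chr5:28786001-28790200) whose pooled level rose from 23.1% to 70.5% in ISCs and from 23.2% to 72.2% in differentiated cells. Of these 18 bins, 15 were called as gains in ISCs and 16 in differentiated cells. The stretches were taken, after the levels were seen, as 5 or more tested bins in a row below 5% in all libraries and the bins between them, so that no bin of the low stretches could be called.

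**Figure D2:**
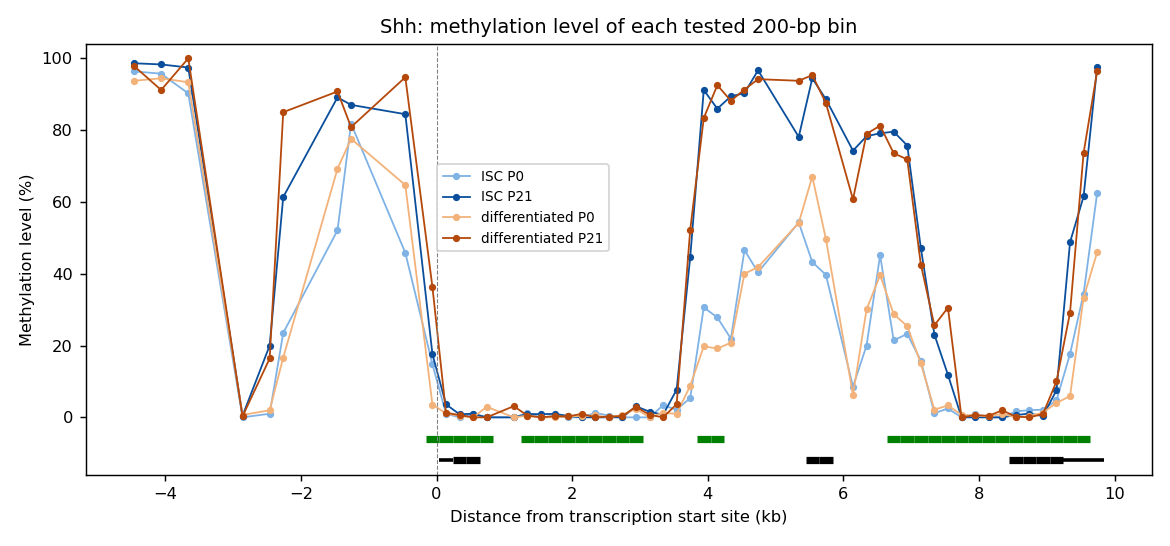
Methylation level (y axis, %) of each tested 200-bp bin of Shh against its distance from the TSS (x axis, kb), with lines that join neighbouring tested bins of each of the 4 libraries. Green bars mark bins in CpG islands, thick black bars coding exon and thin black bars untranslated exon. The libraries of both populations coincide at P21 above those of P0 between the low stretches, and all 4 are near 0% over exon 1 and the coding part of exon 3.

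Within the middle stretch, intron 1 held a run of 6 adjacent called bins (chr5:28788801-28790000). The level of this run was 27.2% (24.0 to 30.6, Wilson 95% interval) in ISCs at P0 and 81.8% (79.2 to 84.0) in ISCs at P21, and 21.0% (19.3 to 22.8) and 79.98% (77.99 to 81.8) in differentiated cells. Exon 2, which is coding, held a run of 2 called bins in ISCs (chr5:28787801-28788200) that went from 40.4% to 90.4% in ISCs and from 54.98% to 89.4% in differentiated cells. The gain of differentiated cells minus that of ISCs was -15.5 points there (interval -26.2 to -4.86), and differentiated cells had the higher level at P0. That run was chosen for its change in ISCs, and the overlapping run of 3 bins called in differentiated cells gave -11.02 points (-21.1 to -0.921). Intron 2 held a run of 7 called bins in ISCs (chr5:28786201-28787600), at 17.3% at P0 and 64.4% at P21 in ISCs and at 22.2% and 61.1% in differentiated cells.

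A pair of bins of intron 1 and 1 bin of intron 2 are shown to set the sequences that gained methylation beside one that did not. They are printed 5' to 3' along the gene, from the mm9 reference, with CpGs in capitals. The first (chr5:28789201-28789400, minus strand) had the largest gain of the gene in ISCs, the second (chr5:28786401-28786600, minus strand) had the most CpGs among the bins called in both populations, and the third (chr5:28791201-28791400, minus strand) had the most CpGs among the CpG island bins of intron 1 that were not called.
Shh intron 1, gained: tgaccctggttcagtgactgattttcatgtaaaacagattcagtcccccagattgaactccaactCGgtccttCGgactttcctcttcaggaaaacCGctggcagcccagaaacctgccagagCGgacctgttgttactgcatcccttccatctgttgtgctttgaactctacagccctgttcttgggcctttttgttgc
Shh intron 2, gained: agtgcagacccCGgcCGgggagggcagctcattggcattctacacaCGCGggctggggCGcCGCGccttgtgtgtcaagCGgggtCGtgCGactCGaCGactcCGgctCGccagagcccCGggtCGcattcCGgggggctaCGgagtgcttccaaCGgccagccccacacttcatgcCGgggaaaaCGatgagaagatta
Shh intron 1, unmethylated: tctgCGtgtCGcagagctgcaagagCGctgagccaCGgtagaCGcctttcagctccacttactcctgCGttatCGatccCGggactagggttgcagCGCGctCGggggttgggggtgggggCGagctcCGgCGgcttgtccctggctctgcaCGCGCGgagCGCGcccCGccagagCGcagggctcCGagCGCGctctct
The intron 1 bin that gained has 4 CpGs and a GC content of 50%, and its level was 21.9% and 89.4% in ISCs at P0 and P21 and 20.8% and 88.2% in differentiated cells (Fisher's exact test, adjusted p = 1.15e-18 in ISCs and 2.13e-65 in differentiated cells). All 4 CpGs rose in both populations. The first, in gene direction, was at 11.8% and 9.76% at P0 and at 80.6% and 83.8% at P21 in ISCs and differentiated cells, and the fourth, the highest at P0 with 42.9% and 38.2%, reached 85.2% and 93.7%. The intron 2 bin has 21 CpGs and lies in a CpG island, and its level rose from 15.8% to 47.2% in ISCs and from 15.02% to 42.6% in differentiated cells. Its CpGs were uneven at P21, from 9.09% to 95.7% in ISCs and from 3.85% to 100% in differentiated cells, with 12 to 29 calls each. The unmethylated bin has 24 CpGs and a GC content of 69.5%, and its level was 1.23% and 0% in ISCs at P0 and P21 and 0.524% and 0% in differentiated cells. The levels at P21 rest on 199 and 451 calls, with 4 to 16 calls at each CpG in ISCs and 11 to 40 in differentiated cells. A count of 0 would allow shares of up to 1.51% and 0.665% if all calls were independent. Since calls on the same read are linked, the true limits are higher.

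CpG islands, here regions with 25 or more CpGs within 500 bp, covered 31 of the 55 tested bins of Shh. Of these island bins, 7 gained in ISCs and 8 in differentiated cells, and of the other 24 bins 14 gained in each. Over all autosomal bins, 1.37% of island bins gained in ISCs and 1.20% in differentiated cells, and 1.06% and 0.984% of the bins outside islands did. The promoter of Shh, within 1 kb of the TSS, rose from 14.6% to 28.9% in ISCs and from 16.6% to 32.998% in differentiated cells, and these rises came to 6.35 and 5.602 points with the calls of the region pooled and to 4.72 and 5.05 points with single CpGs averaged. The promoter bins downstream of the TSS were at 3.61% or less in every library, and those upstream were higher at P21, such as the bin centred at -460 bp from the TSS, at 45.8% and 64.7% at P0 and 84.4% and 94.7% at P21 in ISCs and differentiated cells. Farther upstream, a run of 2 bins centred at -2360 bp was at 6.72% and 35.3% at P0 and P21 in ISCs and at 4.17% and 26.1% in differentiated cells. Farther still lay a bin of 5 CpGs, centred at -2860 bp, that was at no more than 0.676% in any library. The last exon rose from 17.9% to 31.1% in ISCs and from 13.0% to 30.1% in differentiated cells, with the gain in the 3' untranslated part and not in the coding part. With pooled calls these rises came to 1.34 and 4.40 points, and with single CpGs to 3.63 and 4.62 points. Long noncoding transcripts annotated on the opposite strand, 9530036O11Rik over most of the gene and Gm17493 over its 5' end, share these bins.

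Ihh, the other hedgehog ligand of the colonic epithelium, lies at chr1:74991891-74998246 on the minus strand and has 3 exons. Like Shh it had a body of low methylation, at 7.57% and 8.97% in ISCs at P0 and P21 and 8.45% and 9.41% in differentiated cells, and 1.08% to 1.23% of all gene bodies were lower. Unlike that of Shh, it changed by less than 10 points in both populations. The promoter was at 3.51% and 6.59% in ISCs and at 3.14% and 4.54% in differentiated cells at P0 and P21. Of its 45 tested bins, 3 gained in ISCs (6.67%) and 1 in differentiated cells (2.22%), against 1.07% and 0.992% of all autosomal bins. In intron 2, a pair of adjacent bins (chr1:74994201-74994600), at the edge of the unmethylated part, was at 25.2% and 54.6% in ISCs at P0 and P21 and at 25.6% and 44.8% in differentiated cells. The gain of differentiated cells minus that of ISCs was -10.2 points, with an interval from -24.2 to 3.74. Its bin nearer the TSS was called in both populations (Fisher's exact test, adjusted p = 0.00366 in ISCs and 0.0269 in differentiated cells) and is printed for that reason (chr1:74994401-74994600, minus strand, CpGs in capitals).
Ihh intron 2, gained: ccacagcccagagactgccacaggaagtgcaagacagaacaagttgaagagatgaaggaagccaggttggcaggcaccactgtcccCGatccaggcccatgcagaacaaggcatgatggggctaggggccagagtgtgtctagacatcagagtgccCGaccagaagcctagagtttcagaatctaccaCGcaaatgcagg
Of its 3 CpGs, the third in gene direction rose from 21.1% to 67.9% in ISCs and from 27.8% to 66.7% in differentiated cells. The second was at 4.55% and 34.5% in ISCs and at 8.82% and 7.5% in differentiated cells, with 22 to 40 calls. The third bin called in ISCs, at -876 bp from the TSS, was at 21.1% and 47.9% in ISCs and at 25.7% and 31.8% in differentiated cells.

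Ptch1, the hedgehog receptor and itself a target of the pathway, lies at chr13:63610261-63674474 on the minus strand, and its transcript of the longest coding sequence has 23 exons. Its promoter had the lowest level of the 10 genes in each of the 4 libraries, between 0.298% and 0.480%. The body was at 72.5% and 78.1% in ISCs at P0 and P21 and 72.0% and 75.9% in differentiated cells. The rises of 5.59 points in ISCs (4.48 to 6.70) and 3.85 points in differentiated cells (2.82 to 4.88) did not reach 10 points, and 683 and 960 of the 17629 gene bodies rose at least as much. With pooled calls they came to 2.73 and 2.99 points. Of 192 tested bins, 10 were called in ISCs (5.21%, against 2.55% of all autosomal bins) and 5 in differentiated cells (2.60%, against 2.85%). All 10 were gains, and the 5 were 4 gains and 1 loss, with none of them adjacent in the same population. The largest change of a called bin was in intron 17 (chr13:63626001-63626200), at 23.8% and 71.7% in ISCs and at 51.0% and 72.1% in differentiated cells (Fisher's exact test, adjusted p = 0.0123 and 0.367). The only loss, in intron 13 of differentiated cells (chr13:63635401-63635600), was from 100% to 66.7% and rested on 33 and 18 calls.

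A bin of intron 2 was the single bin of Ptch1 called in both populations and is printed for that reason (chr13:63660801-63661000, minus strand, CpGs in capitals).
Ptch1 intron 2, gained: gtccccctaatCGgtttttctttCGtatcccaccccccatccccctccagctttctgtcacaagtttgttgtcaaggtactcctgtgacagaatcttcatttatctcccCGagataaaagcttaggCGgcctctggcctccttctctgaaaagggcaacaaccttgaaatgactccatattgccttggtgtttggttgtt
Its level was 48.5% and 67.1% in ISCs at P0 and P21 and 41.1% and 62.4% in differentiated cells. It was 1 of 5 bins called in ISCs in intron 2, which lie between 5528 and 10128 bp from the TSS. The promoter of an earlier annotated start, at -7646 bp, was at 1.37% to 1.81% in the 4 libraries.

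Gli1, the transcription factor that hedgehog signalling induces and that carries it out, lies at chr10:126766945-126778645 on the minus strand and has 13 exons. Its promoter was at 0.662% to 1.84% in the 4 libraries and its body at 55.7% to 57.0%, and neither moved past 10 points. A bin in the coding part of exon 13 lost methylation in both populations and is printed for that reason (chr10:126768601-126768800, minus strand, CpGs in capitals).
Gli1 exon 13, lost: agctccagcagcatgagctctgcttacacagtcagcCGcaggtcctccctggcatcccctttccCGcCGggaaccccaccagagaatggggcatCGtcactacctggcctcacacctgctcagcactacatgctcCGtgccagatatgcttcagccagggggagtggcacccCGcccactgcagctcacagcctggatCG
This bin was at 49.1% and 23.1% in ISCs at P0 and P21 and at 54.2% and 28.4% in differentiated cells (Fisher's exact test, adjusted p = 0.0034 and 9.75e-07). Of its 7 CpGs 6 were lower at P21 in both populations, and the first in gene direction was not in differentiated cells, with 81.4% and 81.5%. The fourth CpG went from 52.9% to 5.88% in ISCs and from 37.9% to 8% in differentiated cells. A second bin of that exon, centred 10544 bp from the TSS, was called in differentiated cells, with 94.7% at P0 and 75.6% at P21, and was at 92.9% and 80.6% in ISCs.

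**Figure D3:**
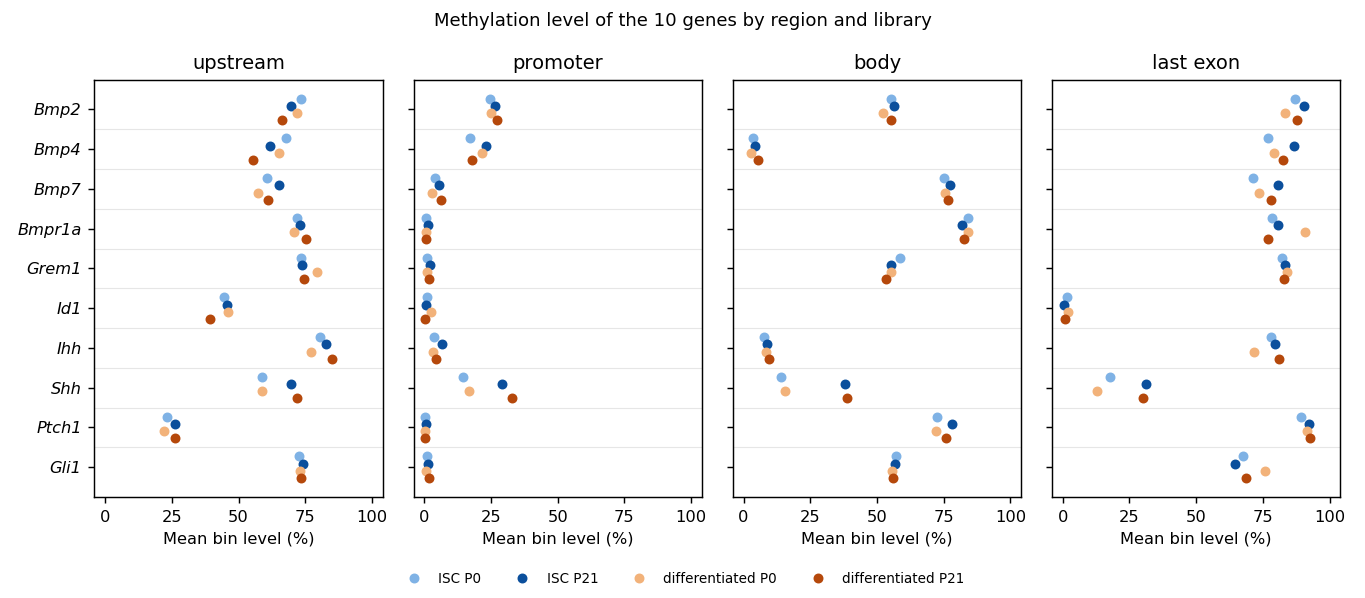
Mean level of the tested and single-CpG bins (x axis, %) of the upstream region (5 to 1 kb before the TSS), the promoter, the body and the last exon of each gene in the 4 libraries. The points of P21 lie to the right of those of P0 in all 4 regions of Shh. Id1 has no body, since its transcript is 1 exon.

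Bmp7, an epithelial and mesenchymal BMP ligand, is the longest ligand gene of the list, at chr2:172693513-172765822 on the minus strand, with 7 exons. Its promoter was at 2.98% to 6.16% in the 4 libraries. Its body was at 75.2% and 77.5% in ISCs at P0 and P21 and 75.4% and 76.8% in differentiated cells. Of 297 tested bins, 12 were called in ISCs (4.04%, against 2.55% of all autosomal bins) and 9 in differentiated cells (3.03%, against 2.85%). They were 10 gains and 2 losses in ISCs and 8 gains and 1 loss in differentiated cells, and 3 were called in both. The largest was in the 3' untranslated part of exon 7 (chr2:172695001-172695200), at 40.8% and 85.9% in ISCs and at 33.3% and 63.8% in differentiated cells (Fisher's exact test, adjusted p = 1.31e-05 and 0.0345).

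Intron 1 of Bmp7 held a pair of runs that gained in ISCs by more than in differentiated cells. The first (chr2:172763001-172763400), 2622 bp from the TSS, was at 45.1% and 79.5% in ISCs at P0 and P21 and at 64.0% and 77.5% in differentiated cells. The second (chr2:172759001-172759400), 6622 bp from the TSS, was at 22.8% and 47.6% in ISCs and at 27.8% and 32.7% in differentiated cells. The gain of differentiated cells minus that of ISCs was -20.9 points in the first (interval -33.8 to -7.99) and -19.9 points in the second (-29.4 to -10.3). These runs were chosen for their change in ISCs, so the size of that difference is a description. Bins 4722 to 10922 bp from the TSS were called in differentiated cells, and 1 of them, at 10122 bp, in both populations, with 61.5% and 76.8% in ISCs and 50.1% and 70.9% in differentiated cells.

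In intron 2 of Bmp7, a bin lost methylation in both populations, and it is printed as the bin of the gene with the most CpGs among those called in both outside the untranslated parts (chr2:172739401-172739600, minus strand, CpGs in capitals).
Bmp7 intron 2, lost: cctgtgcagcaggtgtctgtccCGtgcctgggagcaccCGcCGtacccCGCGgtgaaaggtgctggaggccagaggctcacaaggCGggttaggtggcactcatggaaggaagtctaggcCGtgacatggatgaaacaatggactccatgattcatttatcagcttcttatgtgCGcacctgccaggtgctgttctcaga
It was at 72.6% and 55.7% in ISCs at P0 and P21 and at 76.6% and 58.2% in differentiated cells. All 8 CpGs were lower at P21 in ISCs, and 7 of 8 in differentiated cells. Another bin of intron 2 (chr2:172729201-172729400) was 1 of the 2 bins called between the populations, with levels of 91.8% (ISCs) and 73.9% (differentiated cells) in newborn mice (Fisher's exact test, adjusted p = 0.0249), and it was at 85.3% and 83.4% at P21.

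**Figure D4:**
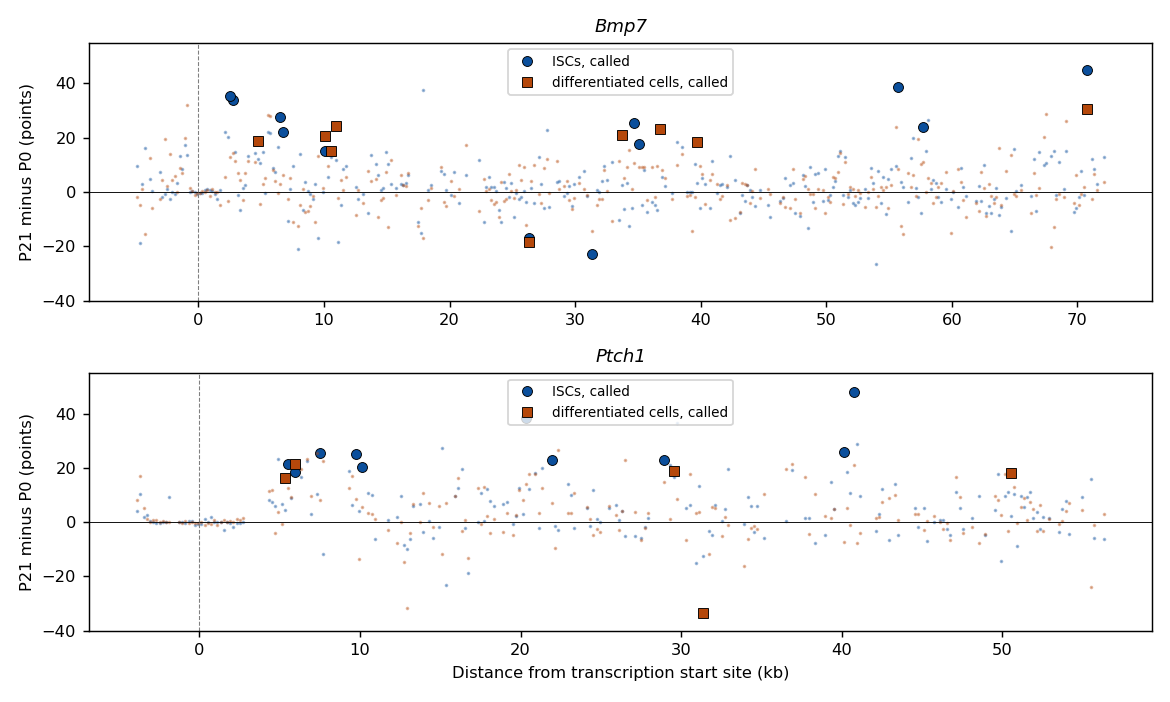
Change in methylation level from P0 to P21 (y axis, percentage points) of each tested bin of Bmp7 (top) and Ptch1 (bottom) against its distance from the TSS (x axis, kb), with large symbols for called bins and small dots for the others. Bins at the TSS lie on 0, and 18 of the 21 called symbols of Bmp7 and 14 of the 15 of Ptch1 are gains.

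Bmp4, a ligand made largely by mesenchymal cells, lies at chr14:47003195-47010344 on the minus strand, with 4 exons in the transcript used. Its body was the least methylated of the 10 genes, at 3.39% and 4.39% in ISCs at P0 and P21 and 2.87% and 5.28% in differentiated cells, and 0.652% to 0.902% of gene bodies were lower. No bin was called in ISCs, where 44 were tested. In differentiated cells 1 bin, at -4356 bp from the TSS, was called as a loss, with 97.2% at P0 and 68.9% at P21 (Fisher's exact test, adjusted p = 0.034), and it was at 90.9% and 100% in ISCs. The promoter was at 17.1% and 23.3% in ISCs and at 21.6% and 17.8% in differentiated cells, and the change of differentiated cells minus that of ISCs was -9.96 points (interval -16.05 to -3.87). This difference came to -1.78 points with pooled calls and turned to 2.18 points with single CpGs averaged, and the change of differentiated cells itself turned from -3.80 to 1.04 and 2.89 points. In the region upstream of the promoter the changes with age were -6.01 points in ISCs (-12.01 to -0.00197) and -9.85 points in differentiated cells (-14.7 to -4.96).

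Bmp2, a ligand of the differentiated colonic epithelium, lies at chr2:133377895-133388621 on the plus strand, with 3 exons. The promoter was at 24.7% and 26.6% in ISCs at P0 and P21 and at 24.8% and 27.2% in differentiated cells. In ISCs an island bin of intron 1 (chr2:133379201-133379400) rose from 1.28% to 21.4%, and a bin of intron 2 (chr2:133385601-133385800) fell from 59.3% to 29.3% (Fisher's exact test, adjusted p = 0.00315 and 0.00132). The first was at 1.54% and 11.6% in differentiated cells, and the second at 36.3% and 41.7%, so that it was lower at P0 there and not called. In differentiated cells the 2 called bins were a loss in the upstream region, from 64.0% to 45.6%, and a gain in intron 2, from 72.3% to 91.8%.

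Bmpr1a, a type I BMP receptor that is mutated in juvenile polyposis, lies at chr14:35223920-35316527 on the minus strand, with 13 exons in the transcript used. Its promoter was at 0.524% to 1.26% and its body at 81.7% to 84.2% in the 4 libraries. Of 165 tested bins, 1 was called in ISCs (0.606%, against 2.55% of all autosomal bins) and 7 in differentiated cells (4.24%, against 2.85%), 6 of them losses. Of these losses 3 lay in intron 1, between 13572 and 14372 bp from the TSS. A run of 2 bins there (chr14:35301401-35301800) was at 62.3% and 36.7% in differentiated cells at P0 and P21 and at 55% and 33.3% in ISCs, and the change of differentiated cells minus that of ISCs was -3.95 points (interval -19.9 to 12.0). Nearer to the TSS, the bin called in both populations is printed (chr14:35302201-35302400, minus strand, CpGs in capitals).
Bmpr1a intron 1, lost: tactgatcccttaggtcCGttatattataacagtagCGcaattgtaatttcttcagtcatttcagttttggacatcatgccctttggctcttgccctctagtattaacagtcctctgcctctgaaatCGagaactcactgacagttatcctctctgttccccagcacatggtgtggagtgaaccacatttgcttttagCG
It was at 49.5% and 25.6% in ISCs and at 45.3% and 29.5% in differentiated cells (Fisher's exact test, adjusted p = 2.72e-06 and 0.00108). This bin was deep, with 331 and 227 calls in ISCs at P0 and P21 and 422 and 322 in differentiated cells. The median tested bin of Bmpr1a held 53 and 53 calls in ISCs and 65 and 50 in differentiated cells. The cause of that depth was not tested. All 4 of its CpGs were lower at P21 in both populations, although the second remained at 81.1% and 85.2%.

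The largest difference of a called bin in Bmpr1a was in the 3' untranslated part of exon 13 (chr14:35224001-35224200). It was at 31.7% and 27.5% in ISCs at P0 and P21 and 70.1% and 17.5% in differentiated cells, so that the differentiated library of P0 stood apart from the other 3. It was called with age in differentiated cells (Fisher's exact test, adjusted p = 6.11e-14) and between the populations at P0 (adjusted p = 0.0014). The last exon as a whole had only 4 bins and moved with it, at 78.4% and 80.5% in ISCs at P0 and P21 and at 90.6% and 76.8% in differentiated cells. Where the mean was taken over single CpGs with at least 10 calls in all 4 libraries, which left 6 CpGs of the exon, the change of the last exon with age in differentiated cells went from -13.8 to 1.64 points and its difference between the populations at P0 from 12.3 to -2.17 points.

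Grem1, the secreted BMP antagonist gremlin, lies at chr2:113586321-113598803 on the minus strand, with 2 exons. Its promoter was at 1.08% and 2.17% in ISCs at P0 and P21 and at 1.15% and 1.64% in differentiated cells. The body, at 53.4% to 58.4%, did not move past 10 points. Of 37 tested bins 1 was called, a loss in intron 1 of ISCs (chr2:113595201-113595400) from 91.3% to 58.7%, and this bin was at 76.2% and 66.7% in differentiated cells (Fisher's exact test, adjusted p = 0.0254 and 0.782).

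Id1, an inhibitor of basic helix-loop-helix factors and a direct target of BMP signalling, lies at chr2:152561987-152563146 on the plus strand. No bin was called in any comparison by Fisher's exact test, where 17 were tested. Its promoter was at 1.04% and 0.646% in ISCs at P0 and P21 and 2.61% and 0.332% in differentiated cells. The upstream region was at 44.4% and 45.5% in ISCs and at 46.2% and 39.3% in differentiated cells. The interval of the change in differentiated cells, -11.7 to -2.07, left out 0 but the change did not reach 10 points.

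**Figure D5:**
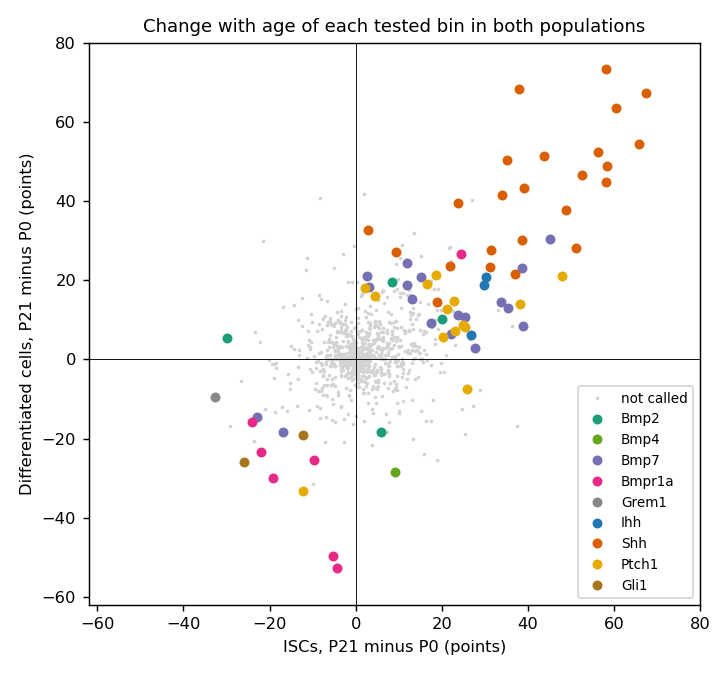
Change in methylation level from P0 to P21 of each tested bin of the 10 genes in ISCs (x axis, percentage points) and in differentiated cells (y axis, percentage points), coloured by gene where the bin was called in either population. The bins of Shh lie in the upper right, up to 67.5 and 73.3 points, and the lower left holds called bins of Bmp7, Bmpr1a, Grem1, Ptch1 and Gli1.

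The mean levels of whole regions were compared in the same way over all genes. A region was past the limit where its mean level differed by more than 10 points and the counting interval left out 0. With age in ISCs, Shh was the single gene past it, in the upstream region (5.47% of all genes were past the limit), the promoter (5.12%), the body (2.60%) and the last exon (9.17%). In differentiated cells Shh was again past it in all 4 regions (4.75%, 4.89%, 2.50% and 8.00% of all genes), together with the last exon of Bmpr1a. In ISCs the last exons of Bmp4 and Bmp7 rose by 9.55 (2.86 to 16.2) and 9.37 points (3.94 to 14.8), just below the limit of size. Under other averaging and binning that of Bmp7 lay between 3.85 points, with single CpGs averaged, and 11.4 points, with bins shifted by 100 bp. That of Bmp4 lay between 6.35 and 9.55 points. In differentiated cells the last exon of Ihh rose by 9.07 points (5.39 to 12.7), also just below the limit. Under other averaging and binning this rise lay between 8.66 and 9.23 points. The rise of the Shh body stayed between 21.1 and 24.1 points in both populations under every other averaging and binning tried. The other regions of Shh fell below 10 points under some of them, the promoter and the last exon as given above and the upstream region from 10.9 to 8.52 points in ISCs and from 13.0 to 6.74 points in differentiated cells with single CpGs averaged. The last exon of Bmpr1a, which rests on 4 bins, turned from -13.8 to 1.64 points with age in differentiated cells with single CpGs. Between the populations at P0, the last exon of Bmpr1a was past the limit, where 4.61% of all genes were, and no upstream region, promoter or body was (2.10%, 1.90% and 0.857% of all genes). At P21 no region of the 10 genes was past it, against 1.66%, 1.77%, 0.607% and 4.30% of all genes for the 4 regions. Pooled calls weigh a bin by its depth, and depth was spread differently over regions in the populations. At P0 the Bmp2 promoter held 1815 calls in ISCs and 5877 in differentiated cells, and its upstream region held 962 and 1007. The part of this in the pooled differences was not tested. With pooled calls, for which no interval was computed, the difference in the Bmp2 body went from -3.19 to -12.3 points at P0. At P21 it went from -0.848 to -10.3 points. That of the last exon of Bmpr1a came to 9.96 points at P0, and at P21 it went from -3.75 to -16.7 points. The interval of the change with age in differentiated cells minus that in ISCs left out 0 in 6 of the 39 regions of the 10 genes, while it did so in 12.8% of the regions of all genes.

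Motifs of the pathways were looked for in the promoters, on both strands and within 1 kb of the TSS of 21418 autosomal genes. The GLI motif GACCACCCA was in 1.71% of all promoters and in that of 1 of the 10 genes, Ptch1, at -915 bp from the TSS. The BMP-response motif GGCGCC, which reads alike on both strands, was in 39.8% of all promoters and in those of 7 of the 10 genes, with no match in Bmp4, Id1 and Shh. The CpG within this motif was at 0% to 9.09% in every library at each of its matches, on as few as 2 calls at a match in Bmpr1a, where 0% sets no useful limit, and the highest value rested on 1 of 11 calls at a match in Gli1 and at a match in Bmpr1a, both in ISCs at P0.

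Other genes of the pathways were given by 6 lists of 56 genes in all, of which 54 were found by name on the autosomes. They held 8231 tested bins, of which 291 were called with age in ISCs (3.54%, with 148 gains and 143 losses) and 302 in differentiated cells (3.67%, with 138 gains and 164 losses). Of all autosomal bins, 2.55% and 2.85% were called, and the median change over the lists was 0 points in both populations. Among other BMP ligands 21 of 1053 bins were called in ISCs (1.99%, with 6 gains and 15 losses). In differentiated cells 26 were called (2.47%, with 12 gains and 14 losses). Bmp6 (1 gain and 7 losses) and Bmp5 (1 gain and 3 losses) held the most in ISCs. Among other BMP receptors 28 of 1103 were called in ISCs (2.54%, near the share of all bins, with 12 gains and 16 losses). In differentiated cells 38 were called (3.45%, with 14 gains and 24 losses). Most of the receptor bins called in ISCs lay in Acvr1, with 6 gains and 11 losses. Among BMP antagonists and modulators 65 of 1914 were called in ISCs (3.40%, with 33 gains and 32 losses). In differentiated cells 55 were called (2.87%, with 26 gains and 29 losses). Smoc2, also a marker of stem cells, led in ISCs with 12 gains and 18 losses.

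Among transducers and targets of BMP signalling 60 of 1201 bins were called in ISCs (4.996%, with 37 gains and 23 losses). In differentiated cells 75 were called (6.24%, with 35 gains and 40 losses), against 5.16% for the 10 genes and 2.85% of all autosomal bins. Smad6, an inhibitory SMAD, led in ISCs with 11 gains and 6 losses. It was followed by Smad1 with 7 gains and 9 losses, and Smad7, another inhibitory SMAD, with 11 gains and 2 losses. Id3, a relative of Id1, had 3 gains among 31 bins in ISCs and 4 in differentiated cells. Among hedgehog ligand, receptors and modulators 68 of 1324 were called in ISCs (5.14%, with 26 gains and 42 losses). In differentiated cells 68 were called (5.14%, with 25 gains and 43 losses). Hhat, which palmitoylates hedgehog ligands, had 13 gains and 18 losses in ISCs and 14 and 16 in differentiated cells, and Boc, a co-receptor, had 3 gains and 19 losses in ISCs and 2 and 22 in differentiated cells. Among effectors and mesenchymal targets of hedgehog signalling 49 of 1636 were called in ISCs (2.995%, with 34 gains and 15 losses). In differentiated cells 40 were called (2.44%, with 26 gains and 14 losses). Sufu, the inhibitor of GLI proteins, led in ISCs with 14 gains and 3 losses, followed by Gli2 with 4 gains and 9 losses. Hand1, a short gene with 30 tested bins, had 9 gains in ISCs and 10 in differentiated cells and no loss in either. Over all autosomal bins, gains made up 1.07% in ISCs and 0.992% in differentiated cells.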

How the data were processed

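DNA of sorted ISCs and differentiated epithelial cells of the mouse colon at P0 and P21 was analyzed by whole-genome bisulfite sequencing, with 1 library for each of the 4 groups that the labels give. The authors mapped trimmed paired-end reads to mm9 with Bismark, which the labels list beside Bowtie. Their versions and any removal of duplicate reads were not given in the sources used here. Calls of several CpGs on the same read make the molecules of a bin fewer than its calls, and duplicates left in would add to this.

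At each CpG cytosine the authors deposited the number of calls and the number of methylated calls, as counts. The fraction beside them, also deposited, equals their ratio and was not used. From these counts, positions at no mm9 CpG (0.465% to 0.850% of the lines of a library) were left out, and both strands and the CpGs of each 200-bp bin were summed. Bins were compared by Fisher's exact test (two-sided) of methylated against unmethylated calls with Benjamini-Hochberg adjustment over all autosomal bins, since the depth of a bin limits its precision. The study's own size of bin, least number of CpGs (2) and difference (15 points) were kept, and the test was added. Region levels are means of the levels of bins with at least 1 CpG and 10 calls in all 4 libraries. Bins were weighted equally, since calls were taken to depend on GC content differently in ISCs and differentiated cells. The intervals of region levels add 2 methylated and 2 unmethylated calls to each bin. Promoters span 1 kb on either side of the TSS of the GENCODE M1 transcript of the longest coding sequence. Region means were given no p-value.

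All 10 genes are described, with the number of called bins, each run of adjacent called bins and the called bin of the largest difference, and for the lists of other pathway genes up to 4 with the most called bins in ISCs. The genes and lists were chosen with earlier results of these data known. The calling was tried on simulated data, with calls drawn independently at the depth of each bin. Such data hold no PCR copies, no linked calls of CpGs on the same read and no differences between mice. The effect of these on the calls was not tested. Alternatives were other minima of calls and CpGs, other limits of size, thinned calls, shifted bins, other windows and starts, and other means. The count without Shh, the stretches of Shh and the alternatives for the upstream region of Shh and for differences between the changes with age were added after the data were seen. Analyses used Python 3.11.15 with numpy 2.4.6, numba 0.67.0 and scipy 1.17.1.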

Additional observations from a re-analysis of the deposited data

Results flagged for a closer look

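The change with age differed between ISCs and differentiated cells, by a counting interval that left out 0, in 6 of 39 regions and 6 of 11 runs of the 10 genes, with no adjustment for their number. Over the regions of all genes the share was 12.8%. Since runs called in both populations overlap, the 11 runs lie in 8 places and the 6 in 4. The change of differentiated cells minus that of ISCs was -16.01 points in the last exon of Bmpr1a, -9.96 points in the promoter of Bmp4, -8.01 points upstream of Id1, 5.92 points upstream of Ihh, 7.41 points in the last exon of Ihh and -1.74 points in the body of Ptch1. With pooled calls the differences upstream of Id1 and in the body of Ptch1 turned to 2.19 and 0.258 points, and with single CpGs averaged that of the Bmp4 promoter turned to 2.18 points and that of the last exon of Bmpr1a came to -0.0960 points. Among runs called in ISCs it was -19.9 and -20.9 points in Bmp7 intron 1 at 172759001 and 172763001, -15.5 points in Shh exon 2 at 28787801 and -8.20 points in the 7 bins of Shh intron 2 at 28786201. In the overlapping Shh runs called in differentiated cells it was -11.02 points at 28787801 and -7.33 points at 28786401. A run called in 1 population was chosen for its change there, and with 1 library a group these differences have no replicate check.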

How the results depend on the processing

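The counts of called bins were 51 in ISCs and 49 in differentiated cells with age, and 2 at P0 and 0 at P21 between the populations. They came to 33, 28, 3 and 1 of 505 tested bins with a minimum of 4 CpGs, where 59451 and 57812 of all 1428573 bins were called with age. With more than 30 points they came to 27, 21, 1 and 0 of 949, where 49588 and 43221 of all 4076373 bins were called with age. With 15 points and no test they came to 129, 116, 55 and 69, and the shares with age, 13.6% and 12.2%, stood beside 13.5% and 12.0% of all bins. With calls thinned to the lowest library they came to 33, 23, 1 and 0. With bins shifted by 100 bp they came to 46, 48, 4 and 2 of 936, where 103702 and 116121 of all 4076656 bins were called with age. With a minimum of 40 calls, 4 bins were called at P0. Without Shh, an alternative chosen after seeing the data, 30 and 27 were called with age. Under each of these settings the gains with age outnumbered the losses in both populations. Minima of 20 calls and 1 CpG, no limit of size, 2 kb upstream and the most 5' annotated start kept every count within 1.5 times. Among region means, the last exon of Bmpr1a reversed with single CpGs averaged, to 1.64 points with age in differentiated cells and -2.17 points between the populations at P0. The rises of the Shh promoter and last exon fell below 10 points with pooled calls and with single CpGs, and that of the promoter in ISCs also with a minimum of 2 CpGs, to 7.5 points. The rise of the Ptch1 body in ISCs went from 5.59 to 2.73 points with pooled calls. Between the populations, pooled calls, which weigh a bin by its depth, took the Bmp2 body to -12.3 points at P0 and -10.3 at P21. They took the last exon of Bmpr1a to -16.7 points at P21. Of the differences between the changes of both populations, computed under these settings after the data were seen, that of the Bmp4 promoter reversed to 2.18 points with single CpGs and those upstream of Id1 and in the body of Ptch1 to 2.19 and 0.258 points with pooled calls, and that of the last exon of Bmpr1a came to -0.0960 points with single CpGs. The cause was not tested for any of these. No paired analysis was run, as each group had 1 library and the sources do not say whether both populations of an age came from the same mice. Thinning alone took the called bins of the 10 genes from 51 to 33 in ISCs and from 49 to 23 in differentiated cells. Over all autosomal bins it took the calls from 104140 to 65903 and from 116373 to 51153.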
